A study of Mus musculus and Homo sapiens
Mus musculus with 14 samples.

Results

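The voltage-gated sodium channel subunits described here were 8 genes chosen by symbol from the count tables of a mouse retina study, namely the alpha subunits Scn1a, Scn2a, Scn3a, Scn8a and Scn9a and the beta subunits Scn2b, Scn3b and Scn4b. All 8 were listed among the 24460 genes of the layer table and the 18415 genes of the amacrine table. The rule itself used gene names and no measured value, but it was written with earlier results of these data known. Light-Seq copies RNA into cDNA inside a fixed section and attaches a DNA barcode by light to the cells a user outlines, so that each sequenced molecule can be traced to its region. In the first experiment the outer nuclear layer (ONL), the bipolar cell layer (BCL) and the ganglion cell layer (GCL) of 4 retinal sections were barcoded, which gave 12 libraries. In the second, amacrine cells that stained for tyrosine hydroxylase protein (TH+) and neighbouring amacrine cells that did not (TH-) were barcoded in 5 sections, which gave 10 libraries, each pooling the outlined cells of 1 section. All tissue came from untreated wild-type CD1 IGS mice in the third postnatal week, with no transgene or allele that set the groups apart. The 4 layer sections were cut from 1 animal and the amacrine replicates were also sections, so every p-value measures the spread between sections and may be technical.

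Voltage-gated sodium channels open when the membrane is depolarized and carry the inward current that starts and propagates the action potential. The alpha subunit forms the pore and the voltage sensor, and beta subunits are small single-pass membrane proteins that modify gating and bring the channel to the membrane. In the retina, ganglion cells send action potentials along the optic nerve through axons that begin at a channel-rich initial segment, whereas photoreceptors and most bipolar cells signal with graded potentials. Amacrine cells, inhibitory interneurons of the inner retina, include spiking types, among them the dopamine cells that make tyrosine hydroxylase.

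Values are counts of distinct UMIs (molecular identifiers that let PCR copies of 1 molecule be counted once) and CPM, the same counts scaled to the total of their library. Libraries held 585655 to 785013 UMIs for the GCL, 193869 to 208437 for the BCL, 310228 to 801105 for the ONL, 134394 to 200344 for TH- cells and 30317 to 87449 for TH+ cells. A count of 0 therefore allowed up to 3 UMIs, or 99.0 CPM in the shallowest TH+ library and 5.12 CPM in the shallowest GCL library, counting error alone considered. The rod, bipolar and ganglion cell marker lists were each highest in the layer of that label. The summed level of 14 rod markers was 73394 to 88431 CPM in the ONL against 16099 to 26068 in the BCL and 5864 to 9743 in the GCL. That of 12 bipolar markers was 9431 to 10454 CPM in the BCL against 1238 to 1650 in the ONL and 1853 to 2034 in the GCL. That of 12 ganglion cell markers was 6987 to 7819 CPM in the GCL against 382 to 754 in the ONL and 489 to 732 in the BCL. In the BCL the rod markers thus summed to more than the bipolar markers, and the part of rod RNA in the BCL levels was not tested. All markers of these 3 lists had UMIs in all 3 layers. Th itself was read at 303 to 660 CPM in the TH+ libraries and at 11.6 to 49.9 CPM in the TH- libraries. The 14 rod markers also reached 16604 to 43205 CPM in TH+ and 9518 to 24538 CPM in TH- libraries. In all these bulk libraries, fewer cells of a type and less RNA per cell cannot be told apart.

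The members lie on 3 chromosomes of the mouse genome (GRCm39, GENCODE vM39, matched by Ensembl identifier). Scn3a (chr2:65287462-65397971, minus strand), Scn2a (chr2:65451102-65597795, plus strand), Scn1a (chr2:66101122-66271572, minus strand) and Scn9a (chr2:66310424-66465306, minus strand) are neighbours on chromosome 2. Scn2b (chr9:45029080-45041368) and Scn4b (chr9:45049595-45065452) are neighbours on the plus strand of chromosome 9, and Scn3b (chr9:40179378-40203052, plus strand) lies apart from them on the same chromosome. Scn8a is on the plus strand of chromosome 15 (chr15:100767739-100943819). Genes on the opposite strand share exon bases with 3 members, namely Gm13630 (101 bases) and Gm13629 (416 bases) with Scn1a, Gm13629 (515 bases) and Gm35265 (26 bases) with Scn9a, and Gm39327 (107 bases) with Scn4b. The authors ran featureCounts with its default settings, which use no strand and leave a read that overlaps the exons of more than 1 annotated gene uncounted, so reads from these stretches may be missing from the members' counts, or, where the annotation used for counting lacked the partner gene, may come from either strand. Reads that matched several places were discarded before counting, which removes reads that the similar alpha subunits cannot tell apart.

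Scn2a is a textbook target of REST, a repressor of neuronal genes outside neurons, and the REST motif was searched because it is the best known regulatory element of this family. The motif searched was TTCAGCACC, then any 2 bases, then GGACAG, on both strands and within 5000 bases on either side of the annotated start of each gene. It was found for 1 of the 8 members and for 59 of 21757 protein-coding genes (0.271%). The match lies 794 bases before the annotated start of Scn2a, on its own strand, at chr2:65450286-65450346 with flanks, and the capitals mark the motif.
Scn2a upstream element: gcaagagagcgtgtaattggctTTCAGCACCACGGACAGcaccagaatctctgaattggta
The match is a description of letters, and no member's level was tested against it.

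All 8 subunits were higher in the GCL than in the ONL, and all 8 were higher in the GCL than in the BCL. Across all 11324 genes tested, 32.2% were called higher in the GCL than in the ONL and 29.3% lower, and 20.4% were called higher in the GCL than in the BCL and 16.1% lower. All 8 passed the low-count filter, but Scn9a and Scn4b passed it only through the GCL, where they were high, so any difference they showed had to lie in this direction, and the count over all 8 is a description only. Both comparisons share the GCL libraries. Beside the ganglion cell markers, the 11 amacrine cell markers were higher in sum in the GCL, at 2496 to 2776 CPM against 1047 to 1429 in the BCL and 486 to 813 in the ONL. So was the sum of the 4 astrocyte markers, at 150 to 212 CPM against 20.6 to 54.4 and 5.53 to 37.4. By mean CPM, Tfap2b (279 against 235) and Aldh1l1 (17.4 against 7.74) were higher in the BCL than in the GCL, and Slc6a9 was higher in the ONL (52.1 against 39.8). The other markers of both lists were highest in the GCL. All markers of both lists had UMIs in the GCL, which is known to hold displaced amacrine cells, and the part of these cells in the members' GCL levels was not tested. Calls are those of the quasi-likelihood test of edgeR at a Benjamini-Hochberg adjusted p of at most 0.05, and each ± on a log2 fold change is its standard error.

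Scn1a encodes the channel Nav1.1, the subunit mutated in Dravet syndrome. Its level was 504, 439, 446 and 417 CPM in the 4 GCL libraries, 25.8, 9.6, 40.7 and 29.7 CPM in the BCL, and 56.2, 23.5, 16.0 and 41.9 CPM in the ONL, in the order of the sections. Every GCL library lay above every library of the other layers, and the BCL and ONL ranges overlapped. The log2 fold change was 3.48 ± 0.172 over the ONL (adjusted p 1.57e-24) and 4.26 ± 0.241 over the BCL (adjusted p 3.54e-21), the largest of the 8 members in each comparison.

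Scn2a encodes Nav1.2, a channel of immature and unmyelinated axons. It was read at 382, 363, 338 and 319 CPM in the GCL, at 61.9, 57.6, 30.5 and 59.3 CPM in the BCL, and at 52.4, 19.4, 16.0 and 25.8 CPM in the ONL. The GCL libraries again stood apart, by 3.33 ± 0.178 on the log2 scale over the ONL (adjusted p 4.56e-23) and 2.91 ± 0.211 over the BCL (adjusted p 4.87e-17). The lowest BCL library, that of section 3, fell inside the ONL range.

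Scn8a encodes Nav1.6, the main channel of the mature initial segment and of the nodes of Ranvier. Its CPM were 545, 417, 452 and 452 in the GCL, 113, 57.6, 112 and 104 in the BCL, and 106, 87.1, 91.3 and 129 in the ONL. It had the smallest rise of the 8 over the ONL, at a log2 fold change of 2.04 ± 0.131 (adjusted p 7.79e-20), and a log2 fold change of 2.45 ± 0.167 over the BCL (adjusted p 4.65e-18). Its BCL and ONL values overlapped.

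Scn3a encodes Nav1.3, which is best known from developing neurons. It was read at 94.3, 85.4, 86.1 and 75.1 CPM in the GCL, 51.6, 38.4, 30.5 and 24.7 CPM in the BCL, and 13.7, 11.1, 2.28 and 16.1 CPM in the ONL. The 3 layers formed 3 ranges that did not overlap. The log2 fold change was 2.77 ± 0.258 for the GCL over the ONL (adjusted p 8.66e-14) and 1.40 ± 0.267 for the GCL over the BCL (adjusted p 2.19e-05).

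Scn9a encodes Nav1.7, the channel known from pain-sensing neurons, and was the rarest of the 5 alpha subunits among the members. The 4 GCL libraries held 15, 6, 14 and 5 UMIs, the BCL libraries 0, 1, 1 and 2, and the ONL libraries 2, 1, 1 and 0. Pooled over sections this was 14.9 CPM in the GCL (95% exact Poisson interval 10.6 to 20.3), 4.99 CPM in the BCL (1.36 to 12.8) and 1.76 CPM in the ONL (0.48 to 4.51), intervals that cover counting error only. Its log2 fold change was 2.75 ± 0.601 over the ONL (adjusted p 8.38e-05). Over the BCL it was 1.68 ± 0.668 (adjusted p 0.0427), a call that was lost with the section as a replicate block (1.64, adjusted p 0.0539) and with DESeq2 (1.69, adjusted p 0.126). Scn9a passed the low-count filter only through the GCL, so both differences had to lie in this direction.

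Among the beta subunits, Scn2b, whose protein is joined to alpha subunits by a disulfide bond, was read at 348, 318, 292 and 357 CPM in the GCL. The BCL gave 56.7, 81.6, 76.2 and 69.2 CPM and the ONL 49.9, 20.8, 9.13 and 51.6 CPM, so that all 3 ranges were separate. The log2 fold change was 3.14 ± 0.184 over the ONL (adjusted p 1.66e-21) and 2.37 ± 0.205 over the BCL (adjusted p 2.77e-14).

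Scn3b, whose protein associates with alpha subunits without a covalent bond, was read at 150, 133, 143 and 198 CPM in the GCL. The BCL held 30.9, 24.0, 15.2 and 19.8 CPM and the ONL 28.7, 13.8, 13.7 and 19.3 CPM, which overlapped each other and stayed below every GCL library. The log2 fold change was 2.79 ± 0.207 over the ONL (adjusted p 1.93e-17) and 2.94 ± 0.276 over the BCL (adjusted p 4.29e-13).

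Scn4b, the beta subunit linked to resurgent sodium current, was rare outside the GCL. Its UMIs numbered 26, 20, 15 and 20 in the GCL libraries, 2, 1, 1 and 0 in the BCL and 3, 1, 2 and 1 in the ONL. The GCL stood above both layers, by 3.02 ± 0.428 on the log2 scale over the ONL (adjusted p 1.81e-08) and 2.69 ± 0.542 over the BCL (adjusted p 5.38e-05). Scn4b passed the low-count filter only through the GCL, so both differences had to lie in this direction.

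**Figure D1:**
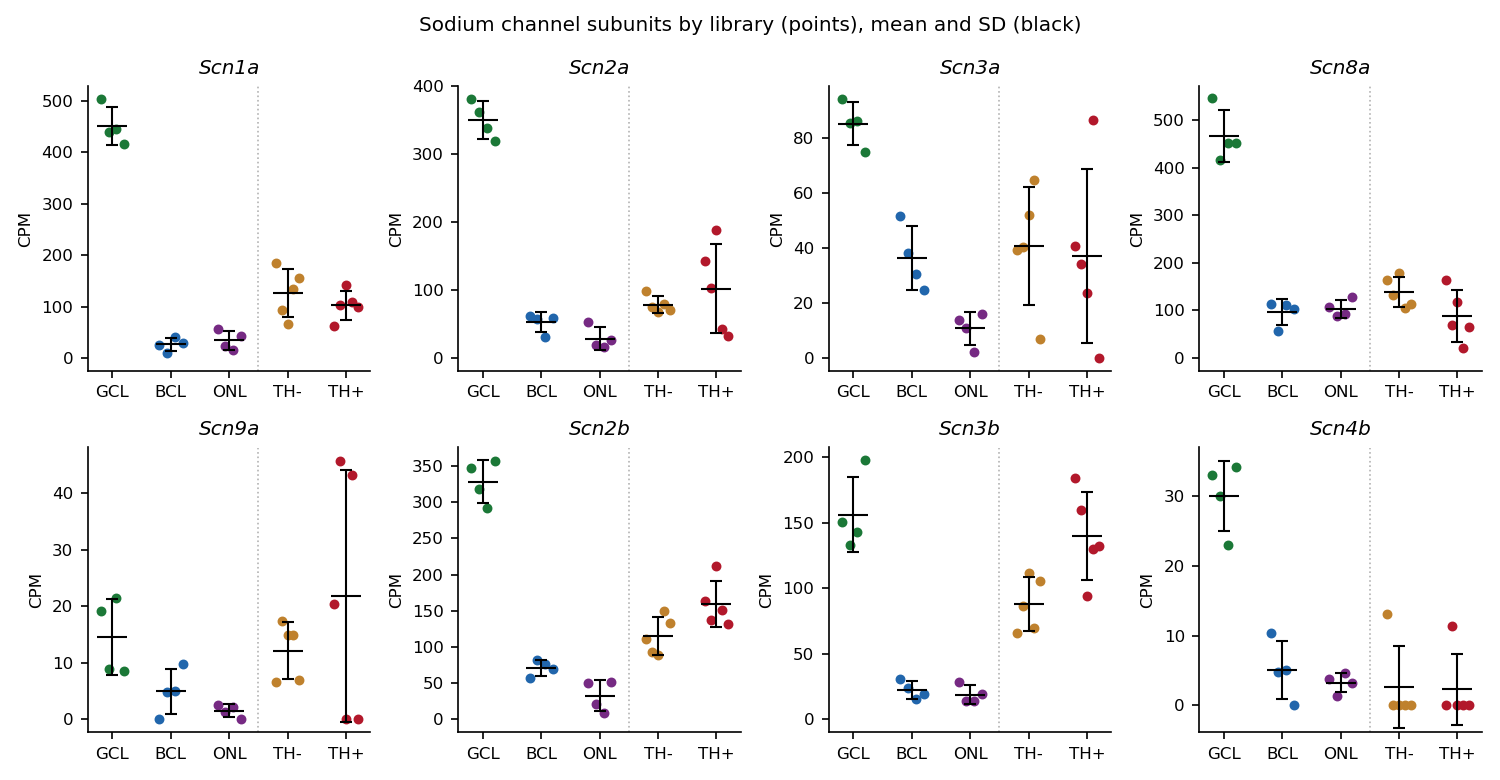
Level of each subunit in CPM (vertical axis, linear, one scale per gene) in every library (points) of the GCL, BCL, ONL (4 sections each) and of TH- and TH+ amacrine cells (5 sections each, right of the dotted line), with the mean and SD in black. For 7 of the 8 members the highest group mean is that of the GCL, and Scn9a, with at most 4 UMIs in a TH+ library, has its highest mean in the TH+ libraries.

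The BCL and the ONL differed for 2 of the 8 subunits, both higher in the BCL. Of all genes tested, 18.2% were called higher in the BCL than in the ONL and 18.5% lower, so the share of members called in this direction was near that of all genes. Scn3a was higher in the BCL by 1.36 ± 0.399 on the log2 scale (adjusted p 0.00499) and Scn2b by 0.77 ± 0.305 (adjusted p 0.0411). The call for Scn2b was lost without section 2 (log2 fold change 0.49, adjusted p 0.317) and without section 3 (0.47, adjusted p 0.272). The remaining 6 did not pass, with log2 fold changes of -0.78 ± 0.381 for Scn1a (adjusted p 0.106), -0.40 ± 0.208 for Scn8a (adjusted p 0.127) and values from -0.15 for Scn3b to 1.07 for Scn9a. Fold changes use TMM scaling and CPM do not, and the mean CPM of Scn3b was higher in the BCL (22.5) than in the ONL (18.9). Without section 3 Scn1a was called lower in the BCL (-1.28, adjusted p 0.0162), and without section 1 Scn2a was called higher there (0.98, adjusted p 0.0326).

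**Figure D2:**
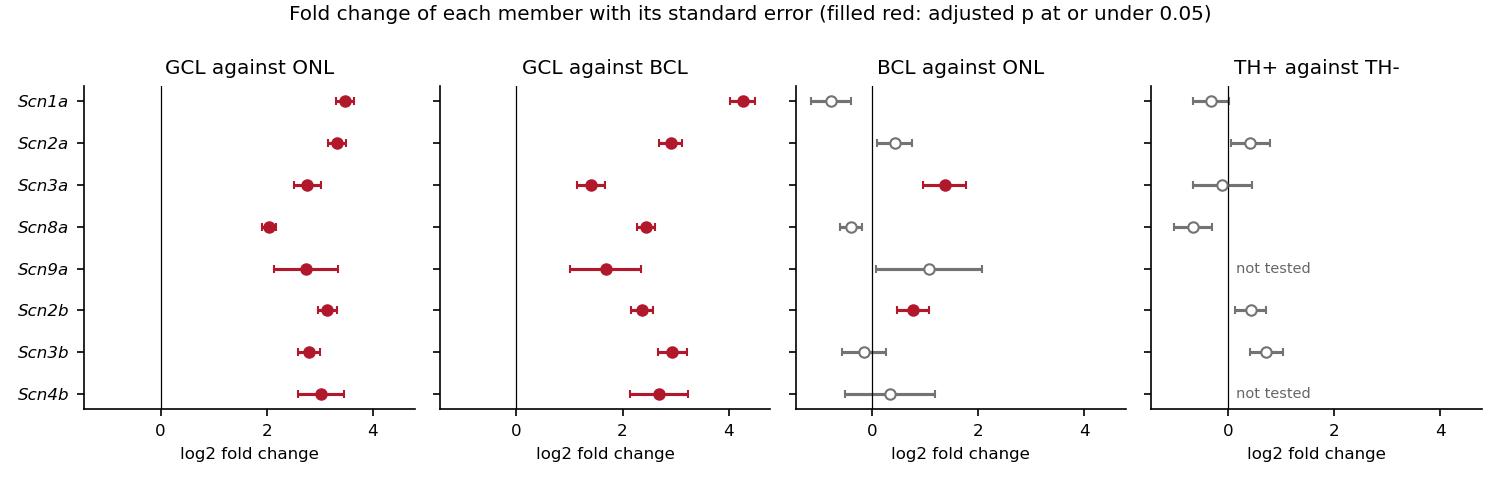
Log2 fold change of each subunit (horizontal axis, first group over second) in the 4 comparisons, with its standard error. All 8 are filled, which marks an adjusted p of at most 0.05, in both GCL panels, 2 are filled for the BCL against the ONL, and none of the 6 tested is filled for TH+ against TH- cells.

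The subunit levels of the ONL varied between sections. The sum over the 8 members was 313 and 287 CPM in ONL sections 1 and 4 and 178 and 155 CPM in sections 2 and 3. The 12 ganglion cell markers summed to 754 and 738 CPM in ONL sections 1 and 4 and to 382 and 443 CPM in sections 2 and 3. The 11 amacrine cell markers, all of which had UMIs in the ONL, summed to 813 and 706 CPM in sections 1 and 4 and to 524 and 486 CPM in sections 2 and 3. The 12 bipolar markers (1650 and 1638 against 1238 and 1301 CPM), the 10 Muller glia markers (1238 and 1296 against 701 and 760 CPM) and the 5 endothelial markers (127 and 129 against 70.5 and 54.8 CPM), all with UMIs in the ONL, were ordered in the same way. In all, 8 of the 12 marker lists were higher in ONL sections 1 and 4 than in sections 2 and 3, so the pattern was not particular to ganglion and amacrine cell markers. The part of these markers in the members' ONL levels was not tested. In the BCL the members summed to 351, 278, 315 and 316 CPM beside 593, 489, 498 and 732 CPM of ganglion cell markers, and 10 of the 11 amacrine cell markers had UMIs there, Th being at 0.

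**Figure D3:**
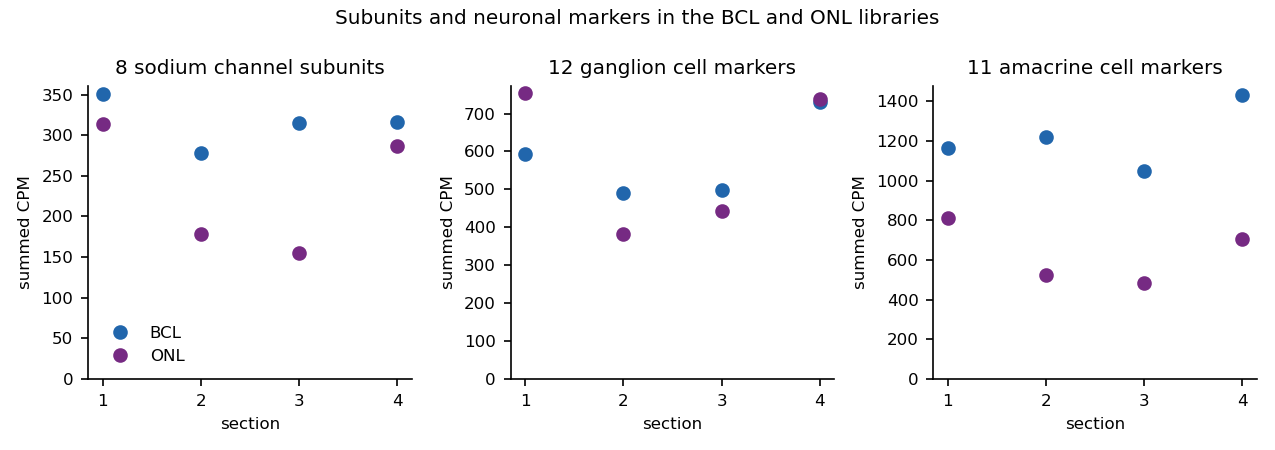
Summed CPM (vertical axes, from 0) of the 8 subunits, of 12 ganglion cell markers and of 11 amacrine cell markers in each of the 4 sections (horizontal axes) of the BCL and ONL. ONL sections 1 and 4 lie above sections 2 and 3 in all 3 panels, with 313 and 287 against 178 and 155 CPM for the subunits.

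Corrected for exon length, the shares of the alpha subunits in their sum differed between layers for some subunits and were alike for others. In the GCL, Scn1a held 38.5% ± 0.291 (SD, n = 4) of the length-corrected alpha subunit UMIs, Scn8a 28.1% ± 1.56, Scn2a 25.9% ± 1.25, Scn3a 6.37% ± 0.26 and Scn9a 1.07% ± 0.462. Each GCL library held 745 to 1213 alpha subunit UMIs. The share of Scn9a ranged from 0.686% to 1.63%. Without length correction the order of the leading pair in the GCL turned, with Scn8a at 34.1% and Scn1a at 33.0% of the alpha subunit UMIs. In the BCL, with 35 to 49 such UMIs per library, Scn8a held 38.2% ± 6.32, Scn2a 26.3% ± 8.74, Scn3a 18.3% ± 5.91 and Scn1a 14.6% ± 6.69. Section 2 had another order there, with Scn2a at 36.1% and Scn8a at 29.5%. In the ONL Scn8a held 53.3% ± 10.8 and Scn1a 22.8% ± 5.61. The share of Scn1a was at least 38.2% in every GCL library and at most 29.4% in every BCL and ONL library, and that of Scn3a was 11.7% to 24.4% in the BCL against 6.06% to 6.62% in the GCL. Among the beta subunits, Scn2b held 67.2% ± 2.32 in the GCL, 74.8% ± 9.32 in the BCL and 58.6% ± 15.5 in the ONL. These shares are descriptions and no test was made of them.

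**Figure D4:**
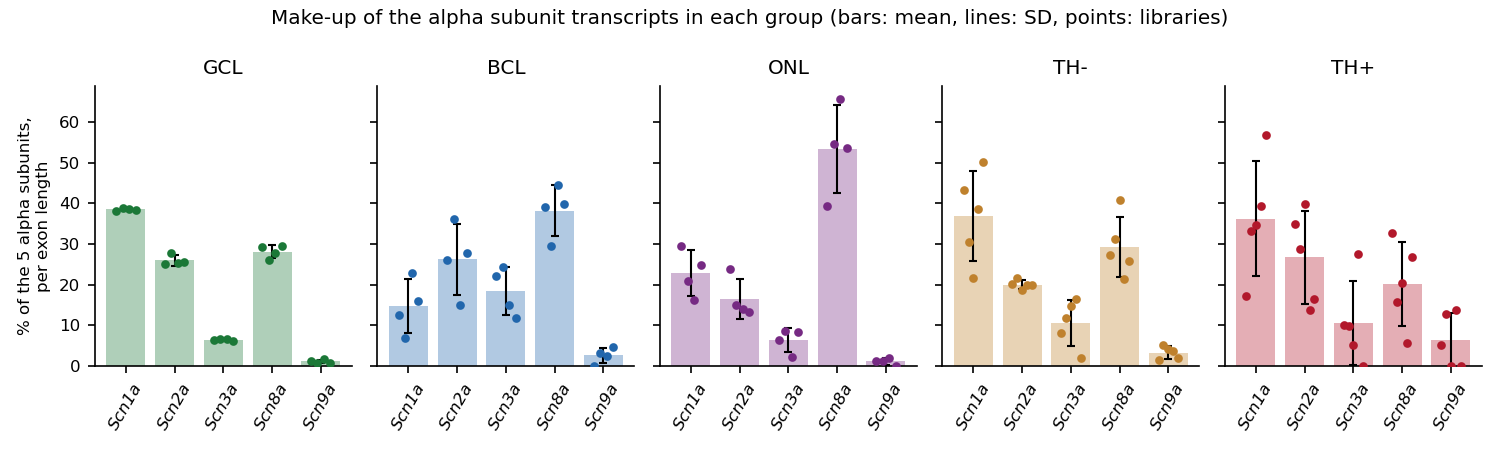
Share of each alpha subunit in the length-corrected UMIs of the 5 alpha subunits (vertical axis, percent, from 0), by library (points) with mean (bars) and SD (lines) in the 5 groups. By mean, Scn1a leads in the GCL at 38.5%, an order that turns without length correction (33.0% against 34.1% for Scn8a), and Scn8a leads in the BCL at 38.2% and in the ONL at 53.3%. In BCL section 2 Scn2a leads (36.1% against 29.5% for Scn8a).

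Per length, the most abundant subunit transcript in the GCL was Scn2b, at 70.6 ± 6.35 UMIs per kilobase of exon after scaling to CPM (SD, n = 4). Scn1a followed at 40.5 ± 3.36, Scn8a at 29.6 ± 3.49, Scn3b at 28.6 ± 5.27 and Scn2a at 27.2 ± 2.14. The last 3 of these lay within each other's spread. Scn3a, at 6.70 ± 0.617, and Scn4b, at 6.04 ± 1.005, were also within each other's spread, and Scn9a was lowest at 1.14 ± 0.528.

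None of the members was called different between TH+ and TH- amacrine cells. Of 6021 genes tested, 0.747% were called higher in TH+ cells and 0.083% lower by edgeR, that is 45 and 5 genes, and with the section as a replicate block 96 and 52. Only 6 of the 8 members passed the low-count filter, which Scn9a and Scn4b did not, and of these 6 edgeR called 0 at the adjusted threshold, with 1 at an unadjusted p under 0.05. DESeq2 also called 0, and the replicate block called 0. The shallow TH+ libraries held 6 to 31 alpha subunit UMIs and 8 to 27 beta subunit UMIs each.

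The member with the unadjusted p under 0.05 was Scn3b, at 184, 160, 94.1, 130 and 132 CPM in TH+ and 65.7, 86.8, 112, 69.9 and 106 CPM in TH- cells. The ranges overlapped, the TH+ value was the lower one only in section 3, and the log2 fold change was 0.72 ± 0.318 (p 0.0275, adjusted p 0.454 by edgeR). Scn8a was read at 163, 68.6, 118, 21.6 and 66.0 CPM in TH+ and 164, 133, 179, 105 and 113 CPM in TH- cells (log2 fold change -0.66 ± 0.353, adjusted p 0.614). The TH+ value was the lower one in all 5 sections, and the ranges overlapped.

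Scn1a gave 61.3, 103, 141, 108 and 99.0 CPM in TH+ cells and 184, 92.6, 67.0, 135 and 155 CPM in TH- cells, ranges that overlapped (log2 fold change -0.32 ± 0.342, adjusted p 0.868). Scn2a gave 143, 103, 188, 43.2 and 33.0 CPM in TH+ cells, on both sides of the TH- values of 98.6, 75.2, 67.0, 79.9 and 70.5 CPM (0.42 ± 0.366, adjusted p 0.822). Scn2b gave 163, 137, 212, 151 and 132 CPM in TH+ and 112, 92.6, 89.3, 150 and 134 CPM in TH- cells (0.42 ± 0.294, adjusted p 0.747). The TH+ and TH- ranges of each of these 3 overlapped. Scn3a ranged from 0 to 86.5 CPM in TH+ and from 7.05 to 64.9 CPM in TH- cells (-0.11 ± 0.56, adjusted p 0.984).

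The 2 untested members were near the limit of counting. Scn9a had 1, 4, 0, 2 and 0 UMIs in the TH+ libraries and 1, 3, 2, 3 and 1 in the TH- libraries. Scn4b had 1 UMI over all TH+ libraries, or 3.91 CPM pooled (95% exact Poisson interval 0.099 to 21.8), and 2 UMIs over all TH- libraries, or 2.495 CPM (0.302 to 9.01).

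The layers and the amacrine cells were sequenced in separate runs, so their levels are given side by side without a test. In CPM, the mean of TH- cells lay between those of the GCL and the other layers for 7 of the 8 members, all but Scn4b. Scn1a, for instance, averaged 127 ± 47.2 CPM in TH- cells (SD, n = 5), against 451 ± 37.4 in the GCL and 34.4 ± 18.1 in the ONL (SD, n = 4). The TH+ libraries overlapped the GCL range for Scn3a, Scn9a and Scn3b, the last at a mean of 140 ± 33.9 CPM beside 156 ± 28.8. The 12 ganglion cell markers, all with UMIs in both amacrine groups, summed to 550 to 1236 CPM in TH- and 755 to 1341 CPM in TH+ libraries, and their part in these levels was not tested.

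In 3T3 cells, a mouse fibroblast line cultured in 3 wells of another experiment and counted in the same way, the 8 members together had 1 UMI, of Scn2a, among 540880. A count of 0 in the pooled wells allowed up to 5.55 CPM.

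Other sodium channel genes outside the 8 members were measured in the layers as well. Scn7a, which encodes the sodium-sensing channel Nax, averaged 25.4 ± 4.45 CPM in the GCL, 11.2 ± 4.78 in the BCL and 1.12 ± 1.52 in the ONL, where 2 UMIs were read in all. Its log2 fold change was 4.36 ± 0.571 for the GCL over the ONL (adjusted p 2.47e-09) and 3.03 ± 0.868 for the BCL over the ONL (adjusted p 0.00411), the second lost without section 2 (adjusted p 0.0587). Scn7a passed the low-count filter only through the GCL, so a difference had to lie in that direction. Scn4a, the skeletal muscle channel Nav1.4, ran the other way, and it passed the filter only through the ONL, which likewise fixed the direction. Its ONL libraries held 19, 17, 13 and 7 UMIs and its GCL libraries 1, 0, 2 and 1, a log2 fold change of -4.00 ± 0.5 (adjusted p 7.12e-10), and it was also lower in the BCL than in the ONL (-1.45 ± 0.472, adjusted p 0.0119), a call lost with DESeq2 (adjusted p 0.0599). Scn10a, a channel of sensory neurons, had 0 UMIs in the GCL, 1 in the BCL and 1 in the ONL, and Scn11a, another such channel, had 7, 6 and 0.

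The 4 FGF homologous factors, which bind the cytoplasmic tail of sodium channels, were all called higher in the GCL than in the ONL. Over all genes tested, 32.2% were called higher in the GCL than in the ONL and 20.4% higher than in the BCL. Fgf12 had the largest change, with a log2 fold change of 3.31 ± 0.177 (adjusted p 4.43e-23), followed by Fgf14 at 2.24, Fgf13 at 2.18 and Fgf11 at 1.95. Against the BCL 3 of the 4 were called higher in the GCL, all but Fgf13, which averaged 58.8 ± 5.28 CPM in the GCL and 81.7 ± 25.3 CPM in the BCL (log2 fold change -0.29 ± 0.236, adjusted p 0.366). The call of Fgf11 over the BCL (0.62 ± 0.212, adjusted p 0.0169) was lost with DESeq2 (adjusted p 0.0745). Fgf13 and Fgf11 were called higher in the BCL than in the ONL, as were 18.2% of all genes tested. None of the 4 was called between TH+ and TH- cells.

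Of 10 scaffold and adhesion genes of the axon initial segment, 9 were called higher in the GCL than in the ONL, beside 32.2% of all genes tested. Against the BCL 9 were also called higher, beside 20.4% of all genes. L1cam, an adhesion molecule of axons, had the smallest adjusted p (3.32 ± 0.153, adjusted p 1.04e-25). Ank3, which encodes ankyrin-G, the protein that anchors sodium channels at the initial segment, followed (2.38 ± 0.123, adjusted p 1.28e-23), then Cntn1 (2.55 ± 0.148, adjusted p 1.39e-21). Nfasc did not pass in either comparison, with log2 fold changes of 0.16 ± 0.103 and 0.048 ± 0.111, but with DESeq2 it was called higher in the GCL than in the ONL (0.22, adjusted p 0.0264). In CPM, which are not TMM-scaled, the mean of Nfasc was lower in the GCL (563) than in the BCL (612). The list's median log2 fold change over the ONL was 2.01. Kcnc1, a potassium channel that supports fast firing, was called higher in the GCL than in the ONL (2.91 ± 0.146, adjusted p 3.24e-24).

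The genes whose pattern over the 12 layer libraries was most like that of a member were found by the root mean square difference of centred log2 CPM, among 6998 genes. Scn9a and Scn4b are left out, since their few UMIs outside the GCL let the prior count shrink their pattern. Scn2a was nearest to Chrna6 (0.205), and Scn3b to Opcml (0.195) and Kcnq3 (0.225). Scn3a was nearest to Jph3 (0.164) and Specc1 (0.167). Scn1a was nearest to Sncg (0.404) and Pou4f2 (0.418), both carried by ganglion cells, and these distances were larger than those of Scn2a, Scn3a and Scn8a to their nearest genes. The nearest gene was Epb41l1 for Scn8a (0.234) and Fras1 for Scn2b (0.269). The points share libraries and depth, and the values are descriptions without a test.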

How the data were processed

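The deposited values were whole-number UMI counts per gene and library, without normalization. The authors extracted UMIs and barcodes with UMI-tools 1.1.1, aligned them with STAR 2.7.9a (GENCODE mouse vM27), kept uniquely placed reads, counted those in exons with featureCounts, deduplicated UMIs, separated the barcodes by exact match and removed 2 ribosomal RNA genes. Gene lengths came from the deposited 3T3 count tables. The 8 members and all gene lists were chosen with earlier results of these data known.

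For testing, edgeR 4.0.16 (R 4.3.3) fitted quasi-likelihood models to the counts, with TMM scaling, a low-count filter (3 UMIs per library, 10 in total) and Benjamini-Hochberg adjustment at 0.05 over all genes tested, in 1 fit of the 12 layer libraries and 1 of the 10 amacrine libraries. The alternatives were DESeq2 1.42.0, its size factors in edgeR, library totals without TMM, the edgeR default filter, no filter, a replicate block, mitochondrially encoded genes left out and each section left out. The procedure was tested on simulated data. Levels, shares and the motif search used python 3.11.15, pandas 2.3.3, scipy 1.17.1 and pysam 0.24.0, and figures used matplotlib 3.10.9.

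The text names all 8 members in each comparison, other sodium channel genes, every FGF homologous factor, up to 3 genes of each further list by adjusted p, and the genes nearest in pattern. Results for several genes named by the rule are left out. Nfasc falls outside this rule and was named after its values were seen. The section number pairs the libraries cut from the same section. After group means were removed, libraries of the same section correlated at 0.0116 to 0.0493 in the layers (0 of 12 pairs over 0.1) and at 0.0287 to 0.257 in the amacrine cells (2 of 5 pairs).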

Additional observations from a re-analysis of the deposited data

Results flagged for a closer look

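Dixon's test of the highest or lowest library was applied to the CPM of each member in each group, and 3 of 40 groups stood out, where chance alone flags about 1 in 20. Scn2a in the BCL was low in section 3, at 30.5 CPM (6 UMIs), with the other 3 sections at 57.6 to 61.9 CPM. The other cases were Scn4b at 13.1 CPM in the first TH- library and at 11.4 CPM in the second TH+ library, which rest on 2 UMIs and 1 UMI, with 0 in every other library of the group.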

How the results depend on the processing

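The 8 members called for the GCL against the ONL were called under every alternative that tested them, and edgeR's default filter tested 7. Scn9a and Scn4b passed the main filter only through the GCL, so for them this is a description only. For the GCL against the BCL, 7 or 8 were called, and Scn9a was the member whose call was lost wherever all 8 were tested and 7 called. With the section as a replicate block 7 were called in that comparison, 8 for the GCL against the ONL, 2 for the BCL against the ONL and 0 for TH+ against TH- cells. Leaving out each section gave 8 members for the GCL against the ONL, 7 to 8 against the BCL, 1 to 3 for the BCL against the ONL and 0 for TH+ against TH- cells. The single count of 1 came without section 2. Library totals without TMM moved the median of all genes to 0.16, -0.15 and 0.25 (log2) in the GCL against the ONL, the GCL against the BCL and the BCL against the ONL. The genes called were then 1872 higher and 2353 lower in the GCL than in the BCL, beside 2310 and 1826, and 2889 higher and 1198 lower in the BCL than in the ONL, beside 2056 and 2096. Without mitochondrially encoded genes in the total, the GCL means of Scn1a, Scn2a, Scn3a and Scn2b became 496, 385, 93.7 and 361 CPM. Without length correction the GCL shares of Scn1a and Scn8a became 33.0% and 34.1%. The GCL mean of Scn1a was 434 to 463 CPM with each section left out. The shifts without mitochondrially encoded genes and without length correction follow from the calculation itself. The cause of the other shifts was not tested. Depth limits the TH+ libraries most, where a count of 0 allows 34.3 to 99.0 CPM.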
